A study of Mus musculus with 16 samples.

Results

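Transcripts of 8 receptors for hematopoietic growth factors and cytokines were measured in mouse dendritic cell (DC) progenitors: *Flt3*, *Kit*, *Csf1r*, *Csf2ra*, *Csf2rb*, *Csf3r*, *Il7r* and *Il3ra*. They were chosen by name, and each is represented by the probe set that carries its symbol alone. All 8 had exactly 1 such probe set, and they stand among 19938 genes tested. The values come from 16 Affymetrix Mouse Gene ST arrays, 2 in each of 8 groups. The groups were GSI- and DMSO-treated CDPs of IkL/L mice, GSI- and DMSO-treated CDPs of WT mice, GSI- and DMSO-treated MDPs of IkL/L mice, and GSI- and DMSO-treated MDPs of WT mice. MDPs are progenitors of monocytes and DCs, and CDPs are progenitors of DCs. IkL/L mice carry a hypomorphic allele of *Ikzf1*, the gene of the transcription factor Ikaros, so the protein is reduced and not absent, in every cell of the animal. GSI, here Compound E at 5 µM, inhibits γ-secretase, the protease that releases the active part of Notch receptors, and DMSO is its vehicle. The donor mice of both genotypes were 6 to 9 weeks old. In all 8 groups sorted CD45.2+ progenitors spent 24 h with CD45.1+ bone marrow cells and conditioned medium containing Flt3L, the ligand of the receptor that *Flt3* encodes, and CD45.2+ cells were then sorted again for RNA. MDP and CDP therefore name the cells put into culture, not the cells recovered from it.

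These receptors carry the signals that keep progenitors alive, make them divide and bias them towards a lineage. *Flt3*, *Kit* and *Csf1r* encode receptor tyrosine kinases, for Flt3 ligand, stem cell factor and the macrophage growth factor M-CSF. The others belong to the cytokine receptor family, which has no kinase of its own and signals through JAK kinases and STAT factors. *Csf2rb* encodes the β chain shared by the receptors for GM-CSF and IL-3, whose α chains are the products of *Csf2ra* and *Il3ra*. *Csf3r* encodes the receptor for G-CSF, the growth factor of neutrophils. *Il7r* encodes the α chain of the IL-7 receptor, which lymphoid progenitors need, and which pairs with the product of *Crlf2* in the receptor for TSLP. FLT3, KIT and CSF1R proteins (CD135, CD117 and CD115) were also the surface markers used to sort the cells before culture: MDPs were CD117hi CD115+ and CDPs CD117lo CD115+ among CD135+ cells. Of these 3 markers the gates of the stages differed in CD117 alone.

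Both clear stage differences were those of *Il7r* and *Flt3*, so the DNA before their start sites is shown. The sequences are from RefSeq on GRCm38.p6. Windows of 250 bases before the start were searched for 6 of the 8 genes, and *Csf1r* and *Csf2rb* were left out of the search. Both stretches are on the minus strand and read 5′ to 3′, with the core of the Ikaros binding motif, GGGAA or its reverse TTCCC, in capitals. For *Il7r* the 185 bases at chr15:9529942-9530126 are given, which lie outside the annotated gene, and for *Flt3* the 250 bases at chr5:147400490-147400739.
Il7r: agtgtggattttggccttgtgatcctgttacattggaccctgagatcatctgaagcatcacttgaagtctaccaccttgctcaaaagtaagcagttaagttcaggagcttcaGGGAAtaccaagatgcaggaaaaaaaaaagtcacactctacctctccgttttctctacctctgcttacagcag
Flt3: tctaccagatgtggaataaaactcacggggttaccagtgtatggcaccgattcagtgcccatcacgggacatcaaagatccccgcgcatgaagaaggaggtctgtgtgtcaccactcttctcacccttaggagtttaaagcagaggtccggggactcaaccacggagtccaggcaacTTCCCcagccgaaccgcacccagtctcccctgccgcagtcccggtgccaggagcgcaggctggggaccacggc
The core was present on either strand for 4 of the 6 genes (*Flt3*, *Il7r*, *Csf2ra* and *Csf3r*) and in 56.2% of all 32851 RefSeq windows of 250 bases. *Kit* had 2 overlapping windows, alike in their matches, so the counts here are of genes and the shares are of windows. The core recognized by ETS factors of the PU.1 type, searched as AGGAAG or its reverse CTTCCT, was present in 5 of the 6 (*Kit*, *Il7r*, *Csf2ra*, *Csf3r* and *Il3ra*) and in 29.5% of all windows. The Ikaros core with a leading T, searched as TGGGAA or TTCCCA, was present in 1 of the 6 (*Csf2ra*) and in 21.6% of all windows. No match of the ETS core overlapped one of the Ikaros core in the windows of these genes. The *Il7r* window held a second match of the Ikaros core, on the opposite strand 6 bases before the start, in the bases not shown. A match describes the sequence, and binding was not measured on these arrays.

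Signals are given as log2 values, on which a difference of 1 is a doubling, and levels are compared within a gene only, since each probe set has its own efficiency. Across genes, r between the replicates of a group was 0.983 to 0.996, and array medians were between 4.52 and 4.65. The targeted gene *Ikzf1* gave 8.36 to 8.94 in the 8 IkL/L arrays and 8.90 to 9.20 in the 8 WT arrays. Its log2 difference was -0.50 in MDPs (adjusted p = 0.0545 from limma) and -0.30 in CDPs (adjusted p = 0.133), and whether the probes lie in the part of the transcript that the allele affects is not known here. The labelled stages were reflected in cell type genes. Of 7 granulocyte progenitor genes, 5 fell in CDPs against MDPs in IkL/L cells and 3 in WT cells, and of 11 conventional DC genes, *Flt3* among them, 8 and 6 rose. Array 2 of DMSO-treated WT CDPs stood apart in the granulocyte progenitor genes, among them *Elane* and *Mpo*, which summed to 7540 on the linear scale there and to 683 in its replicate.

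*Il7r* rose in CDPs against MDPs of both genotypes and in IkL/L CDPs against WT CDPs. *Flt3* was higher in CDPs than in MDPs of both genotypes, by nearly the same amount. *Il3ra* fell in CDPs against MDPs of IkL/L mice. None of the 8 passed the test for GSI. The plot of all 128 values shows each array.

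**Figure D1:**
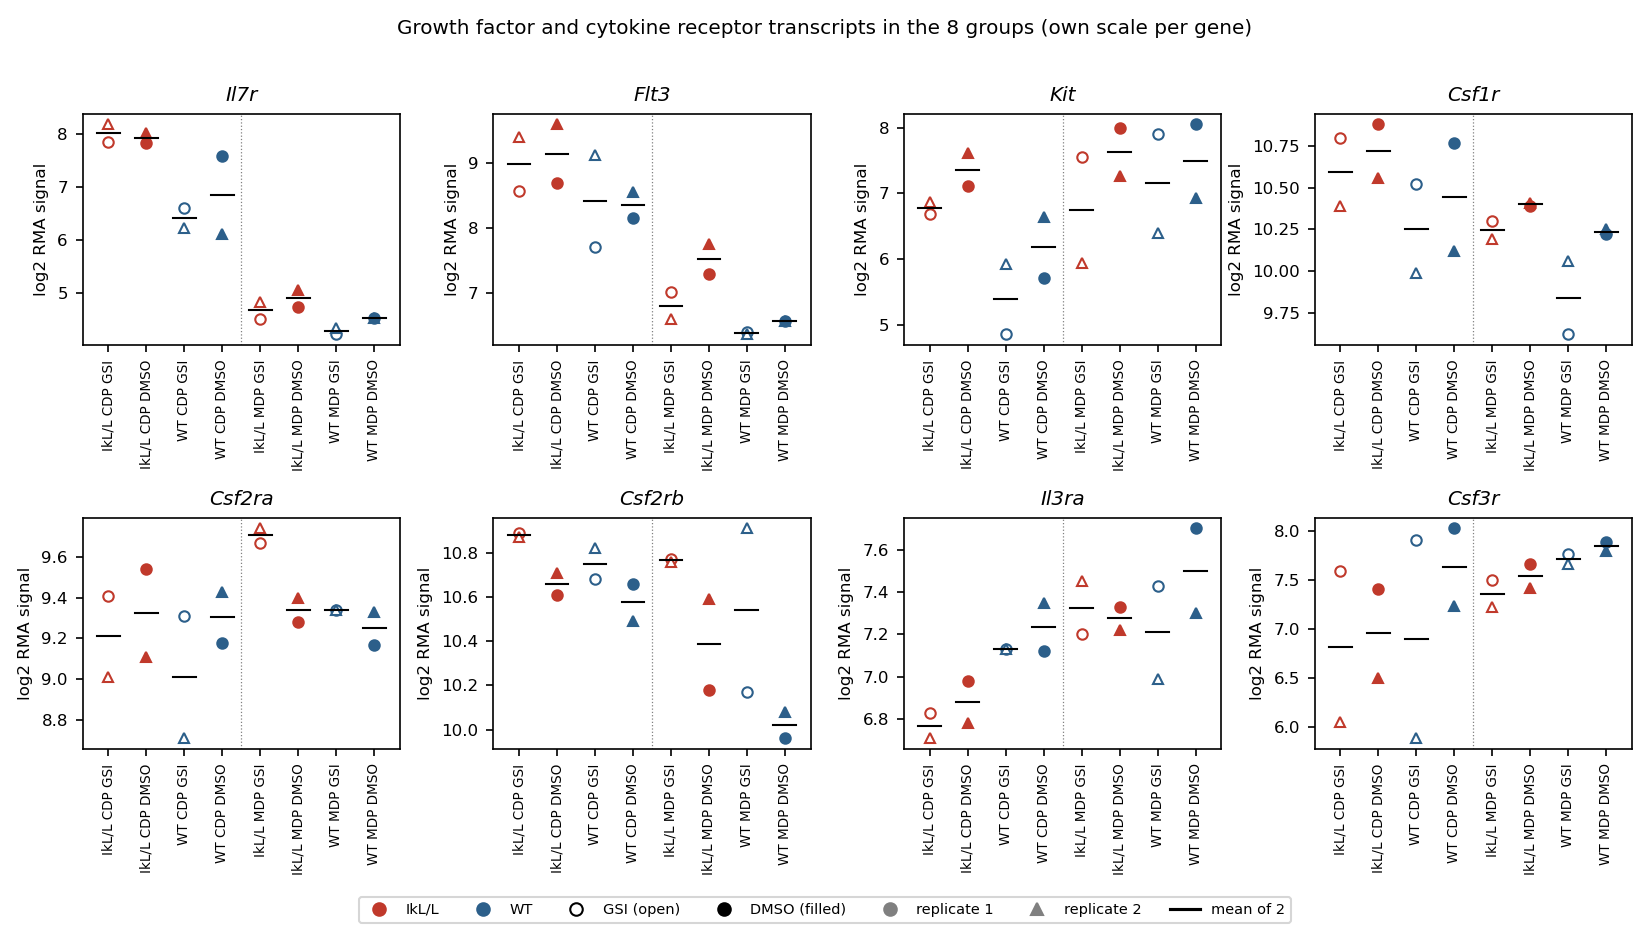
Log2 RMA signal of the 8 receptor genes in each of the 16 arrays, with a panel per gene on its own scale, circles for replicate 1, triangles for replicate 2, open symbols for GSI, filled symbols for DMSO and bars at the mean of 2 arrays. *Il7r* lies between 7.83 and 8.19 in the 4 IkL/L CDP arrays and between 4.21 and 5.06 in all 8 MDP arrays, while all 16 values of *Csf2ra* lie between 8.71 and 9.74.

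*Flt3*, the receptor for the cytokine supplied in the culture, was measured at 8.57 and 9.40 in GSI-treated and 8.70 and 9.60 in DMSO-treated IkL/L CDPs, against 7.02 and 6.59 in GSI-treated and 7.29 and 7.76 in DMSO-treated IkL/L MDPs. In WT cells it was 7.71 and 9.13 in GSI-treated and 8.16 and 8.56 in DMSO-treated CDPs, against 6.39 and 6.36 in GSI-treated and 6.57 in both DMSO-treated MDP arrays. The lowest CDP array was above the highest MDP array in WT cells and in IkL/L cells. The stage difference was 1.90 on the log2 scale in IkL/L cells (3.74-fold, 95% interval 1.20 to 2.61, adjusted p = 0.00525 from limma) and 1.92 in WT cells (3.78-fold, 95% interval 1.22 to 2.62, adjusted p = 0.0206). The difference between them was -0.02 (95% interval -1.01 to 0.98). The WT call was lost without any of the DMSO-treated WT arrays of either stage or without array 1 of GSI-treated WT MDPs (adjusted p 0.0501 to 0.0866), and in a fit of the WT arrays alone (0.127).

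Genotype differences of *Flt3* did not pass the test. A term for the replicate number within stage, chosen after seeing the data, made the CDP difference pass (adjusted p = 0.0376 from limma). In CDPs the mean was 9.07 ± 0.51 in IkL/L cells and 8.39 ± 0.60 in WT cells (SD, n = 4 each), a log2 difference of 0.68 (standard error 0.32, adjusted p = 0.350 from limma), and the arrays overlapped. In MDPs it was 7.16 ± 0.49 in IkL/L cells and 6.47 ± 0.11 in WT cells (SD, n = 4 each), a difference of 0.69 (adjusted p = 0.576) with no overlap of the arrays. The mean was higher in IkL/L cells in all 4 comparisons of the same stage and treatment, by 0.43 to 0.95.

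*Kit*, the stem cell factor receptor, was the most variable of the 3 kinases between replicates. Its values were 6.69 and 6.87 in GSI-treated and 7.11 and 7.61 in DMSO-treated IkL/L CDPs, against 4.85 and 5.92 in GSI-treated and 5.71 and 6.64 in DMSO-treated WT CDPs. All 4 IkL/L CDP arrays were above all 4 WT CDP arrays, the lowest of IkL/L CDPs being 6.69 and the highest of WT CDPs 6.64. The log2 difference was 1.29 (2.45-fold, 95% interval 0.26 to 2.32, unadjusted p = 0.0191 and adjusted p = 0.185 from limma), and the test was not passed. With a term for the replicate number within stage, chosen after seeing the data, the difference passed (adjusted p = 0.00191 from limma). Without array 2 of DMSO-treated WT CDPs it was 1.52 (adjusted p = 0.206). In MDPs *Kit* was 7.55 and 5.94 in GSI-treated and 7.99 and 7.26 in DMSO-treated IkL/L cells, against 7.90 and 6.40 in GSI-treated and 8.05 and 6.93 in DMSO-treated WT cells. These overlapped and averaged 7.19 ± 0.88 in IkL/L cells and 7.32 ± 0.79 in WT cells (SD, n = 4 each). The genotype difference in CDPs exceeded that in MDPs by 1.42 (95% interval -0.04 to 2.88, unadjusted p = 0.0551, adjusted p = 0.806). With the term for the replicate number within stage this passed (adjusted p = 0.0311 from limma).

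CDPs were sorted as CD117lo, and the stage difference of *Kit* was -1.54 in WT cells (95% interval -2.57 to -0.51, adjusted p = 0.216 from limma) and -0.12 in IkL/L cells (95% interval -1.15 to 0.92, adjusted p = 0.955). Its group means thus ran in a different order from those of *Flt3*, with DMSO-treated IkL/L MDPs at the top (7.63 ± 0.52, SD, n = 2) and GSI-treated WT CDPs at the bottom (5.39 ± 0.76). Every pair of neighbours in that order overlapped.

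*Csf1r*, which encodes the M-CSF receptor, differed little. Its values were between 10.39 and 10.88 in IkL/L CDPs, between 9.99 and 10.77 in WT CDPs, between 10.19 and 10.41 in IkL/L MDPs and between 9.62 and 10.25 in WT MDPs. The mean was higher in IkL/L cells at each stage and treatment, by 0.16 to 0.40, and in CDPs than in MDPs, by 0.34 in IkL/L cells (adjusted p = 0.363 from limma) and 0.31 in WT cells (adjusted p = 0.649). The arrays overlapped in each of these comparisons averaged over treatments, and the genotype intervals were -0.07 to 0.69 in CDPs and -0.10 to 0.67 in MDPs.

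The receptor chains for GM-CSF and IL-3 had a narrow range. *Csf2rb* had values between 10.61 and 10.89 in IkL/L CDPs, between 10.49 and 10.82 in WT CDPs, between 10.18 and 10.77 in IkL/L MDPs and between 9.96 and 10.91 in WT MDPs. *Csf2ra* was between 9.01 and 9.54 in IkL/L CDPs, between 8.71 and 9.43 in WT CDPs, between 9.28 and 9.74 in IkL/L MDPs and between 9.17 and 9.34 in WT MDPs. Neither passed the test in any comparison of stage or genotype. For *Csf2rb* the stage difference in WT cells was 0.38 (95% interval 0.06 to 0.70, adjusted p = 0.381 from limma), and without array 2 of GSI-treated WT MDPs, at 10.91 the highest of its stage, it was 0.57 with an adjusted p of 0.0290. The neighbouring paralog *Csf2rb2*, which encodes a β chain specific for IL-3 in mice, was 9.87 ± 0.06 in IkL/L CDPs and 9.19 ± 0.20 in WT CDPs (SD, n = 4 each), a difference of 0.67 (adjusted p = 0.182). In IkL/L MDPs its mean was 9.26 with GSI and 9.05 with DMSO. In WT MDPs it was 8.32 with GSI, from arrays at 7.61 and 9.03, and 8.30 with DMSO. The genotype difference in MDPs did not pass the test either. The paralogs are nearly alike in sequence and how far their probe sets separate them was not tested.

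*Il3ra*, the IL-3 receptor α chain, ran opposite to *Il7r* across the groups. It was 6.83 and 6.71 in GSI-treated and 6.98 and 6.78 in DMSO-treated IkL/L CDPs, against 7.20 and 7.45 in GSI-treated and 7.33 and 7.22 in DMSO-treated IkL/L MDPs. No IkL/L CDP array reached the lowest IkL/L MDP array. The log2 difference was -0.48 (95% interval -0.74 to -0.21, adjusted p = 0.0400 from limma), which held without 6 of the 16 arrays left out in turn, and the highest adjusted p was 0.147, without array 2 of DMSO-treated IkL/L CDPs. The moderation with a trend and a robust prior also lost it (0.0587). In WT cells *Il3ra* was 7.13 in both GSI-treated CDP arrays and 7.12 and 7.35 in DMSO-treated CDPs, against 7.43 and 6.99 in GSI-treated and 7.70 and 7.30 in DMSO-treated MDPs. These overlapped, with a difference of -0.17 (adjusted p = 0.764). IkL/L CDPs were also below WT CDPs in every array, by a mean of -0.36 (95% interval -0.62 to -0.09, adjusted p = 0.144), which did not pass the test, and by -0.301 (adjusted p = 0.381) without array 2 of DMSO-treated WT CDPs.

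*Csf3r*, the G-CSF receptor, had values between 6.05 and 7.59 in IkL/L CDPs, between 5.88 and 8.03 in WT CDPs, between 7.22 and 7.67 in IkL/L MDPs and between 7.66 and 7.89 in WT MDPs. Its CDP arrays spread far more than its MDP arrays. The genotype difference was -0.38 in CDPs (95% interval -1.36 to 0.61, adjusted p = 0.808 from limma) and -0.33 in MDPs (95% interval -1.31 to 0.66, adjusted p = 0.898). Of 11 neutrophil genes, 10 rose in IkL/L CDPs against WT CDPs in the same fit and 4 in IkL/L MDPs against WT MDPs. In CDPs they included the granule protein genes *Camp* (log2 difference 3.59, adjusted p = 6.81e-05) and *Ltf* (4.17, adjusted p = 0.000146). The summed linear signal of the 11 was 20400 to 34700 in IkL/L CDPs and 6580 to 13500 in WT CDPs, and 22700 to 27200 in IkL/L MDPs and 11600 to 12400 in WT MDPs. The mean of *Csf3r*, itself a receptor of neutrophils, was lower in IkL/L cells in all 4 comparisons of the same stage and treatment, none of which passed the test. Of the 7 granulocyte progenitor genes 0 passed by genotype at either stage. In CDPs 1 had a higher mean in IkL/L cells (median log2 difference -1.23), and in MDPs 5 did (median 0.08). The CDP values include array 2 of DMSO-treated WT CDPs, which stood apart in these genes.

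*Il7r* was measured at 7.86 and 8.19 in GSI-treated and 7.83 and 8.03 in DMSO-treated IkL/L CDPs, against 6.61 and 6.22 in GSI-treated and 7.59 and 6.12 in DMSO-treated WT CDPs. It was higher in all 4 IkL/L CDP arrays than in any WT CDP array. The replicates of DMSO-treated WT CDPs were far apart, the lower being array 2, which also held the granulocyte progenitor transcripts. Averaged over treatments, *Il7r* was 7.98 ± 0.17 in IkL/L CDPs and 6.64 ± 0.67 in WT CDPs (SD, n = 4 each), a 2.53-fold rise (95% interval 1.71-fold to 3.76-fold, adjusted p = 0.0130 from limma). Here as elsewhere n counts arrays. The labels do not say whether GSI- and DMSO-treated arrays share mice, so 4 arrays may stand for fewer animals. Within treatments the log2 difference was 1.61 with GSI (adjusted p = 0.0528) and 1.07 with DMSO (adjusted p = 0.294). Without array 1 of DMSO-treated WT CDPs the DMSO difference was 1.81 (adjusted p = 0.00616), and without array 2 it was 0.34 (adjusted p = 0.913). The averaged rise was lost without array 2 of DMSO-treated (adjusted p = 0.0515) or GSI-treated (0.0548) IkL/L CDPs, and in a fit of the 8 CDP arrays alone (0.102). Without array 2 of DMSO-treated WT CDPs it was 0.975 on the log2 scale (adjusted p = 0.00555), with the spread estimated from the remaining arrays.

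In MDPs *Il7r* was low. It was 4.51 and 4.83 in GSI-treated and 4.73 and 5.06 in DMSO-treated IkL/L cells, against 4.21 and 4.34 in GSI-treated WT cells and 4.52 in both DMSO-treated WT arrays. These values lay near the array medians and overlapped, with a genotype difference of 0.38 (95% interval -0.19 to 0.95, adjusted p = 0.756 from limma). The genotype difference in CDPs exceeded that in MDPs by 0.96 (95% interval 0.15 to 1.76, unadjusted p = 0.0244, adjusted p = 0.608), so a difference between the stages was not called. Without array 1 of DMSO-treated WT CDPs it was 1.32 (adjusted p = 0.0144), and without array 2 it was 0.590 (adjusted p = 0.506).

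CDPs had more *Il7r* transcript than MDPs in either genotype. The rise was 9.16-fold in IkL/L cells (log2 difference 3.20, 95% interval 2.63 to 3.77, adjusted p = 6.26e-05 from limma) and 4.72-fold in WT cells (log2 difference 2.24, 95% interval 1.67 to 2.81, adjusted p = 0.00328). The MDP values lay near the array medians and the table holds no measure of background, so these folds can be read only as lower bounds. Both calls held without each of the 16 arrays in turn, with adjusted p up to 0.000688 in IkL/L and 0.0207 in WT cells, and the WT call was lost in a fit of the WT arrays alone (0.0980). Without array 2 of DMSO-treated WT CDPs the WT difference was 2.61 (adjusted p = 0.000152). With DMSO alone the difference was 3.04 in IkL/L cells (adjusted p = 0.00233) and 2.34 in WT cells (adjusted p = 0.0599). *Crlf2*, the partner chain for TSLP, was 6.49 ± 0.05 in IkL/L CDPs and 6.55 ± 0.14 in WT CDPs (SD, n = 4 each), with a difference of -0.06 (adjusted p = 0.870), and *Il2rg*, the common γ chain, was not measured by a probe set of its own.

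Genes of other cell types that use *Il7r* were examined in the same arrays. Of 11 T, NK and innate lymphoid cell genes, 0 rose in IkL/L CDPs against WT CDPs and 2 had an unadjusted p under 0.05, and in CDPs against MDPs of IkL/L mice 0 rose and *Nkg7* fell. Their summed linear signal was 226 to 250 in IkL/L CDPs, 195 to 241 in WT CDPs, 276 to 475 in IkL/L MDPs and 228 to 360 in WT MDPs, and 8 of the 11 had a higher mean in IkL/L CDPs than in WT CDPs, with a median log2 difference of 0.09 against -0.02 over all genes. The T and NK cell genes *Cd3g*, *Ncr1* and *Klrb1c* stayed between 3.05 and 3.52 in every array, *Cd3d* was at most 4.25 and *Cd3e* was between 4.17 and 4.89. *Thy1* had a mean of 5.96 in GSI-treated and 5.83 in DMSO-treated IkL/L CDPs, against 5.48 in GSI-treated and 5.29 in DMSO-treated WT CDPs. Among 8 B cell genes, *Blnk* rose in the same comparison and *Pax5* and *Ebf1* were between 3.51 and 4.23 in every array. Their sum was 412 to 443 in IkL/L CDPs, 280 to 482 in WT CDPs, 344 to 381 in IkL/L MDPs and 235 to 357 in WT MDPs. Of 7 mature DC genes measured, 6 rose in IkL/L CDPs against WT CDPs and 7 in IkL/L CDPs against IkL/L MDPs. In WT CDPs against WT MDPs, where *Il7r* also rose, 1 of the 7 passed. All 7 had a higher mean in WT CDPs and an unadjusted p under 0.05 from limma. Their median log2 difference was 0.93, against -0.01 over all genes. In that comparison 0.833% of all genes were called, against 6.75% by stage in IkL/L cells. The summed signal of the mature DC genes was 3580 to 5990 in IkL/L CDPs and 460 to 724 in WT CDPs. It was 347 to 494 in IkL/L MDPs and 257 to 289 in WT MDPs. The part of mature DCs in the *Il7r* signal was not tested, and in sorted populations more cells of a type and more RNA per cell cannot be told apart.

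Of 10 mast cell and basophil genes, *Mcpt8*, *Prss34* and *Hdc* rose in IkL/L CDPs against WT CDPs (log2 differences 2.71, 2.79 and 1.65, adjusted p = 0.00970, 0.0236 and 0.0283 from limma), and the other 7, *Kit* among them, did not pass. Of the 10, 8 had a higher mean in IkL/L CDPs, and the median log2 difference was 1.03. The sum of the list without *Kit*, which mast cells express, was 638 to 2640 in IkL/L CDPs and 234 to 742 in WT CDPs. The part of these cells in the *Kit* signal was not tested.

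Across genotypes, 1 of the 8 receptors (*Il7r*) passed the test in CDPs, where 5.13% of all genes did, and 3 had an unadjusted p under 0.05, as did 15.4% of all genes. The median log2 difference of the 8 was 0.21, against -0.02 over all genes. In the CDP groups of a single treatment, 0 passed with DMSO, where 1.18% of genes were called, and 0 with GSI, where 2.15% were. *Il7r* alone had an unadjusted p under 0.05 in either, where 9.38% of all genes did with DMSO and 10.5% with GSI. In MDPs 0 of the 8 passed for the average of both treatments (0.597% of all genes called), and 0 had an unadjusted p under 0.05 (8.8% of all genes). Counts were also 0 at both levels within MDPs for DMSO (0.105% called, 4.41% at the unadjusted level) and GSI (0.115% and 6.81%). By the criterion of a mean over 1.5-fold apart, without a test, *Il7r*, *Kit* and *Flt3* were higher in IkL/L CDPs (3.48% of all genes) and *Flt3* was higher in IkL/L MDPs (1.69% of all genes). The difference between the genotype effects at the 2 stages passed for 0 of the 8 (0.562% of all genes called), with *Il7r* under an unadjusted p of 0.05, as were 6.43% of all genes.

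**Figure D2:**
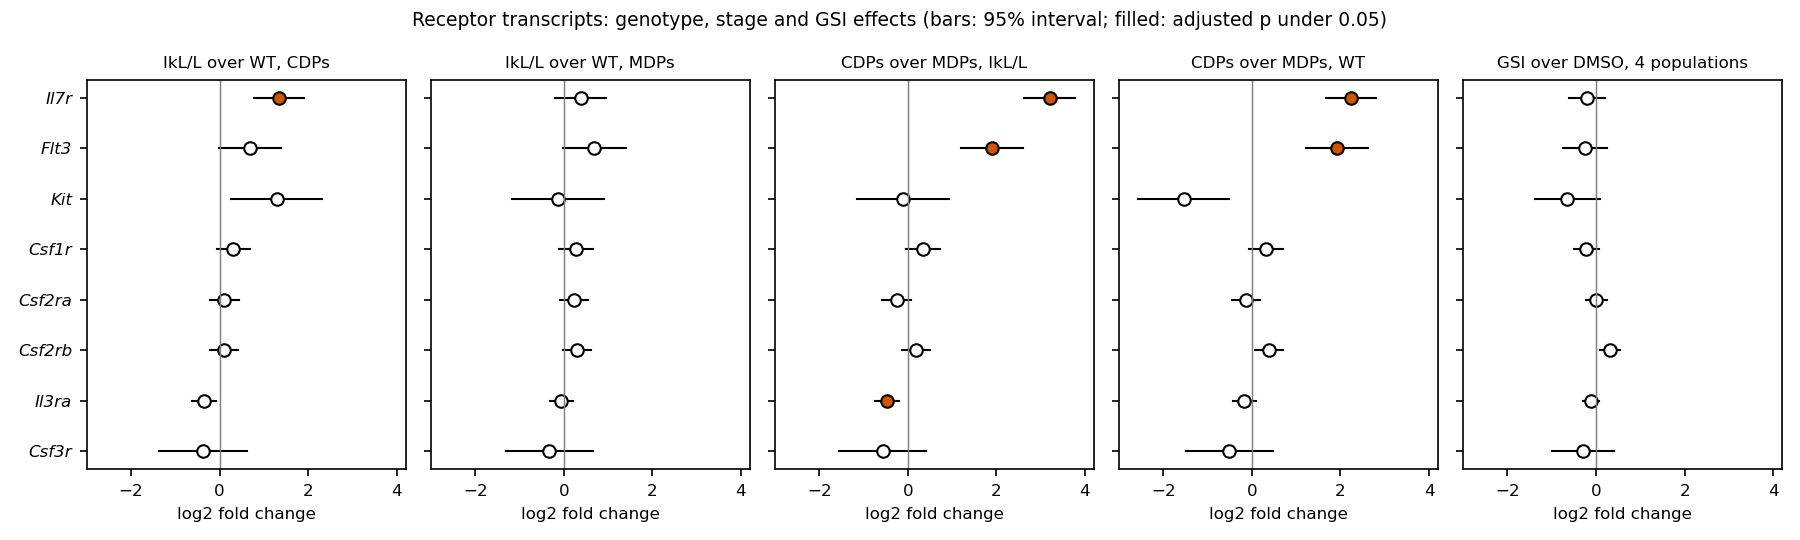
Log2 fold change of the 8 receptor genes from limma, with 95% intervals as lines and filled points where the adjusted p is under 0.05, for genotype in CDPs and MDPs, stage in IkL/L and WT cells, and GSI averaged over the 4 populations. *Il7r* is called in 3 of the 5 panels, at 1.34, 3.20 and 2.24, and *Flt3* in both stage panels, at 1.90 and 1.92.

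Across stages, 3 of the 8 (*Il7r* and *Flt3* higher, *Il3ra* lower in CDPs) passed in IkL/L cells, where 6.75% of all genes did, and 2 (*Il7r* and *Flt3*) in WT cells, where 0.833% did. With DMSO alone 1 passed in IkL/L cells (*Il7r*, 1.71% of genes called) and 0 in WT cells (0.0953% called, 3 receptors and 5.38% of all genes with an unadjusted p under 0.05). The IkL/L CDP arrays enter both the genotype and the stage comparison, so the rises of *Il7r* in them are not independent. The medians of the 8 were 0.04 in IkL/L cells and 0.09 in WT cells, near the -0.02 and -0.01 of all genes.

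GSI changed none of the 8 past the threshold. Averaged over the 4 populations, 0 passed (0.306% of all genes called), and 1, *Csf2rb*, had an unadjusted p under 0.05, as did 11.4% of all genes. It was 10.73 ± 0.24 with GSI and 10.41 ± 0.29 with DMSO (SD, n = 8 each), a log2 difference of 0.32 (95% interval 0.10 to 0.55, unadjusted p = 0.00912, adjusted p = 0.249 from limma). Its mean was higher with GSI in 4 of 4 populations, by 0.18 to 0.52, and the arrays did not overlap in any of the 4. In GSI- against DMSO-treated IkL/L CDPs its values were 10.89 and 10.87 against 10.61 and 10.71, and in WT CDPs 10.68 and 10.82 against 10.66 and 10.49. In IkL/L MDPs they were 10.77 and 10.76 with GSI against 10.18 and 10.59 with DMSO, and in WT MDPs 10.17 and 10.91 with GSI against 9.96 and 10.08 with DMSO. The *Csf2rb* difference was small beside the stage difference of *Il7r*, and it was not called in any fit tried, with adjusted p of 0.0621 at the lowest.

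The other receptors did not pass either. *Kit* had a lower mean with GSI in 4 of 4 populations, by -0.34 to -0.88, and averaged 6.52 ± 0.97 with GSI and 7.16 ± 0.77 with DMSO (SD, n = 8 each). This difference of -0.65 had an interval of -1.38 to 0.08 (adjusted p = 0.504 from limma). It passed with the term for the replicate number within stage, chosen after seeing the data (adjusted p = 0.0345 from limma). *Csf1r* and *Csf3r* also had lower means with GSI in 4 of 4, with averages of -0.22 (adjusted p = 0.545) and -0.30 (adjusted p = 0.758). *Il7r* differed by -0.20 (95% interval -0.61 to 0.20, adjusted p = 0.709), *Flt3* by -0.26 (adjusted p = 0.704), *Il3ra* by -0.11 (adjusted p = 0.646) and *Csf2ra* by 0.01 (adjusted p = 0.975). Within single populations 0 of the 8 passed in IkL/L CDPs (0.00502% of all genes called), WT CDPs (0.01%), IkL/L MDPs (0%) or WT MDPs (0%), and *Csf2rb* in WT MDPs alone had an unadjusted p under 0.05, a level met by 3.5%, 4.1%, 2.62% and 6.77% of all genes in the same 4 populations. Whether GSI acted differently on IkL/L and WT CDPs was tested directly, and 0 of the 8 (0% of all genes) passed, with 0 under an unadjusted p of 0.05 (1.43% of all genes). For *Il7r* that difference was 0.54 (95% interval -0.60 to 1.68).

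The spread between replicates differed among the genes. The residual SD of *Kit* was 0.75 and that of *Flt3* 0.50, above those of 99.3% and 97.7% of all genes. In *Csf3r* the array numbered 2 was lower in 8 of 8 groups, by -0.09 to -2.03. In *Kit* it was lower in all 4 MDP groups, by -0.73 to -1.61, and higher in all 4 CDP groups, by 0.19 to 1.07. In the 4 CDP groups it was also higher for *Flt3*, by 0.40 to 1.42, and lower for *Csf1r*, by -0.32 to -0.64. Between arrays of the same number, stage and treatment, *Flt3* was higher in IkL/L than in WT CDPs in 4 of 4, by 0.28 to 1.04. So were *Kit*, by 0.95 to 1.84, *Il7r*, by 0.24 to 1.97, and *Csf1r*, by 0.11 to 0.44. *Csf2ra* and *Csf2rb* were higher in 3 of 4, *Csf3r* in 1 of 4 and *Il3ra* in 0 of 4. In MDPs *Flt3*, *Csf1r*, *Csf2ra* and *Il7r* were higher in IkL/L cells in 4 of 4. There *Csf2rb* was higher in 3 of 4, *Kit* and *Il3ra* in 1 of 4 and *Csf3r* in 0 of 4. The share of all genes with such counts was not determined. The labels do not say whether arrays with the same number came from the same mouse or day.

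**Figure D3:**
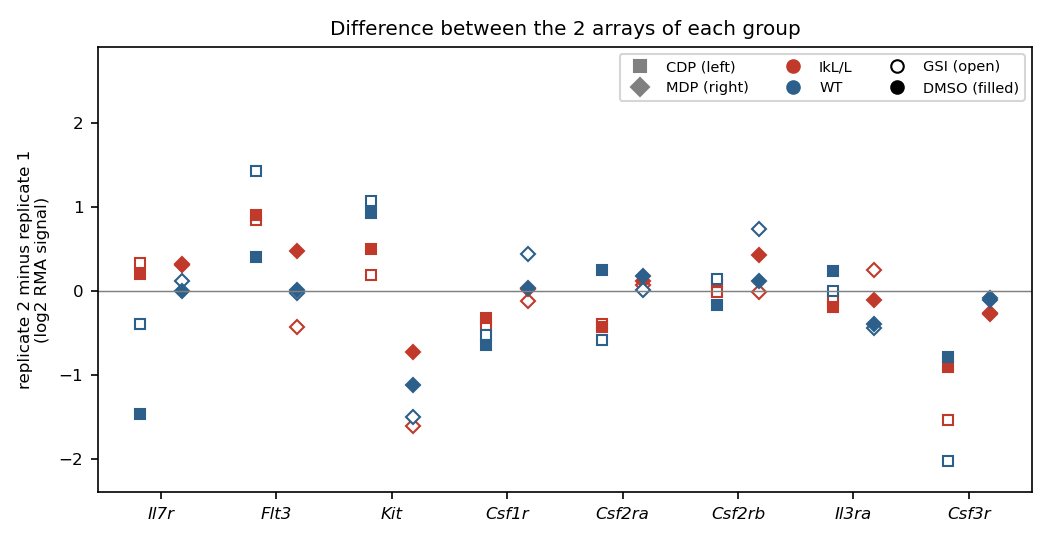
Difference between the 2 arrays of each group (replicate 2 minus replicate 1, log2 RMA signal) for the 8 receptor genes, with squares for CDPs, diamonds for MDPs, open symbols for GSI and filled symbols for DMSO. *Csf3r* lies below 0 in 8 of 8 groups and *Kit* below 0 in the 4 MDP groups and above 0 in the 4 CDP groups.

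Some receptors varied together over the 16 arrays. Pearson's r was 0.89 between *Flt3* and *Il7r*, -0.76 between *Il7r* and *Il3ra* and -0.70 between *Flt3* and *Il3ra*, given as descriptions, since the arrays share the stage and genotype differences above. Among 3115 genes with an SD of at least 0.3, the genes most like *Il7r* were *Gpr137b* (r = 0.975), *Rala* (0.970), which encodes a small GTPase, and *Ly9* (0.969), a SLAM family receptor of leukocytes. Those most like *Flt3* were *Itgax* (0.980), the CD11c gene of DCs, the cyclin D gene *Ccnd1* (0.967) and *Nfatc2* (0.964). *Csf1r* was nearest to *Adam17* (0.957), the protease that sheds surface receptors, *Ctsb* (0.947) and *Lpl* (0.942). *Csf3r* was nearest to *Gda* (0.953), *P2rx7* (0.947) and the adaptor gene *Lcp2* (0.944). The nearest to *Csf2rb* were *Spint1* (0.952), *Ifi30* (0.892) and *Ppard* (0.880). For *Kit* they were *Chst11* (0.893), *Inka1* (0.886) and 9030619P08Rik (0.836), for *Csf2ra* *Dhrs7* (0.897), *Mocos* (0.894) and *Glul* (0.857), and for *Il3ra* *Nnt* (0.887), *Ttpa* (0.875) and *Nudt7* (0.859).

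Other genes of the same pathways were followed in 8 lists. Genes of the ligands for these receptors, such as *Csf1* and *Tslp*, did not pass the test, with 0 of 10 called in any comparison averaged over treatments, and at most 1 with an unadjusted p under 0.05. Of 22 other hematopoietic cytokine receptors, 4 rose in IkL/L CDPs against WT CDPs. They were *Il15ra* (log2 difference 1.34, adjusted p = 1.18e-04 from limma), *Il13ra1* (1.49, adjusted p = 0.0104), *Il2ra* (1.11, adjusted p = 0.00161) and *Il18r1* (0.65, adjusted p = 0.00373), and *Ifnar2*, an interferon receptor chain, fell by 0.28 (adjusted p = 0.0361). *Il2ra* and *Il18r1* had mean signals of 4.77 and 4.02 in IkL/L CDPs and 3.66 and 3.37 in WT CDPs, where both were below the median signal of every array. The mean of *Il18r1* was below it in IkL/L CDPs as well. In IkL/L MDPs *Il13ra1*, an IL-13 receptor chain, rose by 1.88 (adjusted p = 0.0147). The genotype difference was higher in CDPs than in MDPs for *Il15ra* (by 1.32, adjusted p = 0.00570) and *Il2ra* (by 1.21, adjusted p = 0.0305). *Il2ra* was below the median signal of every array in MDPs of both genotypes, so no bound can be put on its difference between stages.

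Most signal transducers and inhibitors did not pass the test. In IkL/L CDPs against WT CDPs, 3 of 12 kinase and STAT genes, 3 of 18 inhibitor genes and 0 of 15 adaptor and lipid kinase genes rose and 0 fell, where 5.13% of all genes were called. *Stat4*, *Stat2* and *Jak2*, the kinase bound by the β chain of the GM-CSF receptor, were the kinases and STATs that rose (1.64, 0.77 and 0.66, adjusted p = 0.00955, 0.0209 and 0.0406 from limma). Among the inhibitors, *Socs2*, which encodes a suppressor of cytokine signaling and is itself a target of STAT5, had a mean of 6.94 ± 0.78 in IkL/L CDPs and 4.01 ± 0.06 in WT CDPs (SD, n = 4 each, log2 difference 2.93, adjusted p = 1.02e-04), and its difference exceeded that in MDPs by 2.92 (adjusted p = 0.00464). Its means in WT CDPs and in MDPs of both genotypes (3.73 in IkL/L and 3.72 in WT) were below the median signal of every array. The *Socs2* difference in CDPs can therefore be read only as a lower bound. With both MDP means that low, no bound can be put on its difference between the stages. *Cblb*, a ubiquitin ligase that turns off receptors, rose by 1.12 (adjusted p = 0.00201) and the adaptor gene *Dok1* by 0.60 (adjusted p = 0.0103). Of 22 target genes of STAT5 and ERK, 4 rose, namely *Socs2*, *Egr2* (1.72, adjusted p = 0.00191), *Spred1* (0.70, adjusted p = 0.00148) and *Mcl1* (0.37, adjusted p = 0.0491). Among the 4, *Spred1* is a negative regulator of ERK signaling and *Mcl1* a survival gene. Of the adaptor and lipid kinase genes 3 had an unadjusted p under 0.05, the nearest to the threshold being *Pik3r5* (0.71, adjusted p = 0.0565), and of 18 transcription factors of myeloid and DC progenitors *Cebpa* rose (0.36, adjusted p = 0.0282). In MDPs 0 genes passed in these 5 lists, with 2 to 7 in each at an unadjusted p under 0.05.

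**Figure D4:**
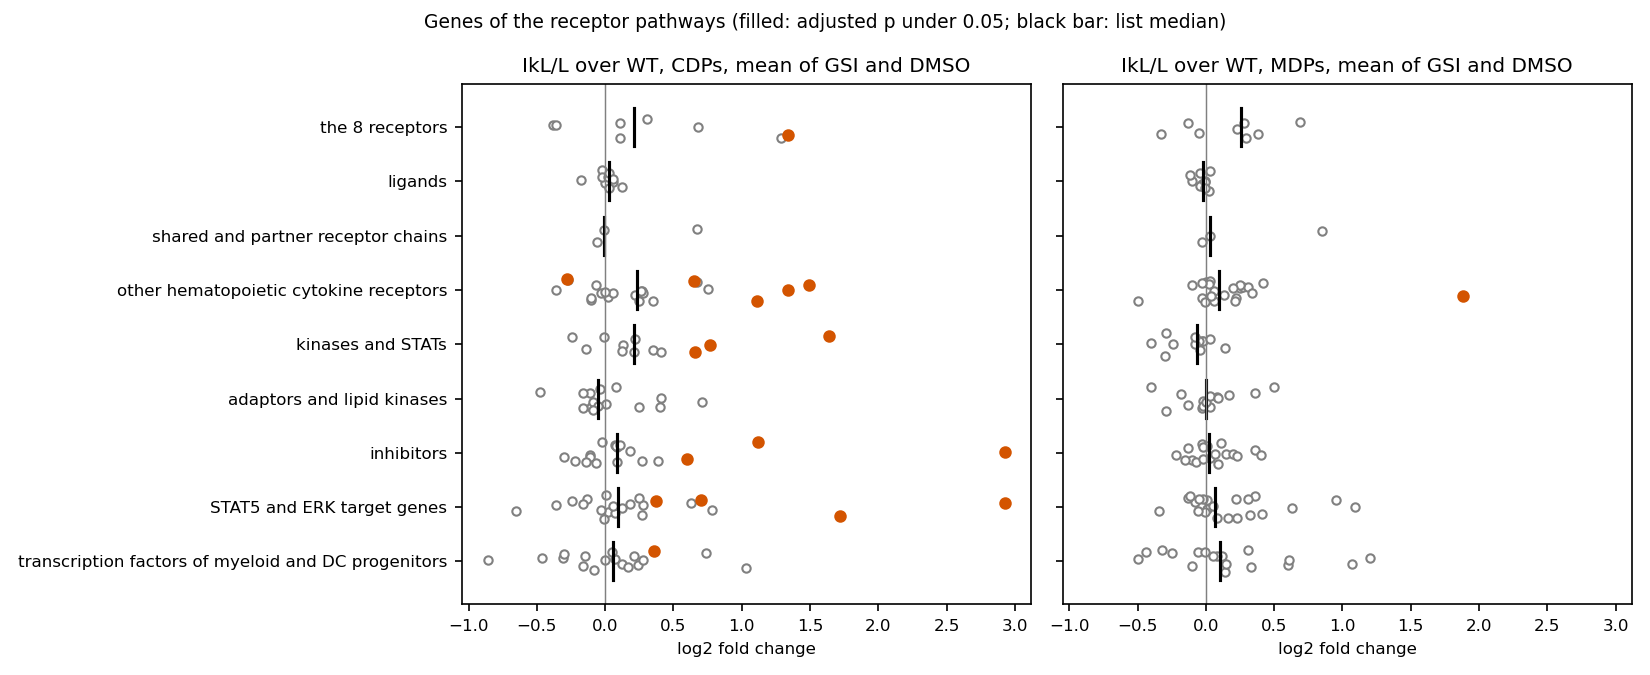
Log2 fold change, IkL/L over WT, of each gene of the 8 receptors and of the 8 pathway lists in CDPs (left) and MDPs (right), averaged over GSI and DMSO, with filled points where the adjusted p from limma is under 0.05 and black bars at the medians. In CDPs *Socs2* lies at 2.93, and it is drawn in both the inhibitor and the target list, while in MDPs *Il13ra1*, at 1.88, is the filled point.

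The same lists were compared by stage, where 6.75% of all genes were called in IkL/L cells and 0.833% in WT cells. Counts of calls in the 2 genotypes are therefore not on an equal footing. Of the 22 other receptors, 6 rose in CDPs against MDPs of IkL/L mice, led by *Il2ra* (1.29, adjusted p = 5.44e-04 from limma), *Il15ra* (0.93, adjusted p = 0.00114), *Il18r1* (0.54, adjusted p = 0.00917) and *Il10ra* (0.91, adjusted p = 0.00986). The means of *Il2ra* and *Il18r1* in IkL/L MDPs were below the median signal of every array. For *Il18r1* so was the mean in IkL/L CDPs. In WT mice 2 rose, *Lifr* (1.09, adjusted p = 0.0320) and *Il13ra1* (1.49, adjusted p = 0.0378). Of 12 kinases and STATs, 5 rose in IkL/L cells, among them *Jak2* (1.21, adjusted p = 0.00141) and *Stat4* (1.93, adjusted p = 0.00347), and 0 in WT cells, where 2 had an unadjusted p under 0.05. *Spred1* rose in both, by 1.25 in IkL/L cells (adjusted p = 3.73e-05) and 0.95 in WT cells (adjusted p = 0.00139), as did the cell cycle gene *Ccnd1*, by 1.61 (adjusted p = 0.0256) and 2.42 (adjusted p = 0.0142). Of the 18 transcription factors, *Tcf4*, a factor of plasmacytoid DCs, rose in both, by 1.18 in IkL/L cells (adjusted p = 0.00938) and 1.16 in WT cells (adjusted p = 0.0441), *Irf4* rose and *Myb*, a factor of early progenitors, fell in IkL/L cells (1.80 and -1.94, adjusted p = 0.0304 and 0.0230), and *Id2* rose in WT cells (1.64, adjusted p = 0.0187). With GSI the pathway lists held a single call, *Lifr*, which rose by 0.80 averaged over the populations (adjusted p = 0.0491), with 5.55 ± 0.58 in GSI-treated and 4.75 ± 0.50 in DMSO-treated arrays (SD, n = 8 each).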

How the data were processed

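The deposited values are log2 signals, which the authors made by RMA in Affymetrix Expression Console 1.4.1 (background correction, normalization across arrays, probe summary). RNA was amplified from small amounts, the table holds no measure of signal over background, and 2 arrays per group limit the precision. Of 28188 probe sets, 21789 carried 1 gene symbol, 1621 several and 4778 none in the platform annotation, whose build the sources used here do not give. Of several probe sets for a gene the one with the highest mean was kept. All 16 arrays, grouped by their labels, entered 1 limma model with a mean for each of the 8 groups (R 4.3.3, limma 3.58.1, eBayes, two-sided, 8 residual and 2.35 prior degrees of freedom), whose code was tested on simulated data. Adjustment by Benjamini-Hochberg ran over 19938 genes with a threshold of 0.05, and means over 1.5-fold apart were also counted, which is the study's criterion. With 2 against 2 arrays the exact permutation test has a smallest p of 0.333. A legend gives 2 mice per condition, the labels do not, and p-values measure only the spread between these arrays. The receptors and gene lists were chosen with earlier results of these data known. Named were the 8 receptors, per comparison and pathway list up to 4 called genes or otherwise up to 2, per marker list up to 2, and the 3 genes most like each receptor. *Ifnar2*, *Hdc*, *Cd3d*, *Cd3e*, *Thy1*, *Cd3g*, *Ncr1*, *Klrb1c*, *Pax5* and *Ebf1*, outside this rule, were chosen after their values were seen. Of the marker lists that the results do not describe, 1 of 9 monocyte and macrophage genes, 1 of 7 plasmacytoid DC genes, 1 of 6 erythroid and megakaryocyte genes and 1 of 6 stem cell genes rose in IkL/L CDPs against WT CDPs, and 0 fell.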

Additional observations from a re-analysis of the deposited data

How the results depend on the processing

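Alternatives were a term for the replicate number (a replicate block), over all arrays, within genotype or, chosen after seeing the data, within stage, eBayes with a trend and robust prior, subtraction of array medians, only genes above the median signal, the mean of all probe sets of a gene, all probe sets, only the groups compared (not run for the 2 comparisons that use all 8 groups), and each array left out in turn, with a lone array assumed to vary like the other groups. Of 1364 values for 55 differences, 1296 kept their direction and side of the threshold. The replicate block within genotype, the trend and robust prior, and the filter on signal each called 1 receptor, *Il7r*, for genotype in CDPs with GSI (adjusted p = 0.0227, 0.0280 and 0.0282) and for stage in DMSO-treated WT cells (0.0251, 0.0171 and 0.0198). The replicate block over all arrays called 2 for stage in DMSO-treated IkL/L cells, where *Flt3* joined (0.0472). Same-numbered arrays deviated together among the 4 CDP groups (r from 0.348 to 0.658) and the 4 WT groups (0.14 to 0.585). Among the MDP groups r was -0.112 to 0.476. It was 0.322 to 0.476 for MDP pairs without GSI-treated IkL/L MDPs and below 0 for each pair with that group. Over all 28 pairs of groups r was -0.254 to 0.658. Every value below 0 involved that group, except -0.044 between GSI-treated WT MDPs and GSI-treated IkL/L CDPs. With 2 numbers a group and no label on their meaning, the arrays were not taken as pairs. The replicate block within stage called 3 receptors for genotype in CDPs, where *Kit* (adjusted p = 0.00191) and *Flt3* (0.0376) joined *Il7r*, 1 with DMSO (*Kit*, 0.0384), 2 with GSI (*Il7r* and *Kit*), 1 for the difference of genotype effects between stages (*Kit*, 0.0311), 2 for stage with DMSO in WT and 2 in IkL/L cells (*Il7r* and *Flt3*), and 1 for GSI (*Kit*, 0.0345). It also called *Kit* for stage in WT cells (0.00257) and *Csf1r* for stage in IkL/L cells (0.0474). With only the groups compared 0 receptors were called for genotype in CDPs and 0 for stage in WT cells, where fewer arrays estimate the spread. Without single arrays the count was 0 to 1 for genotype in CDPs with DMSO, with GSI and averaged, for the difference of genotype effects between stages and for stage in DMSO-treated WT cells, 1 to 3 for stage in WT cells averaged and 1 to 2 for stage in DMSO-treated IkL/L cells. Over all genes, the 1023 calls for genotype in CDPs became 1704 with the block within stage, 1619 with that within genotype and 626 with only the groups compared, the 166 for stage in WT cells 590, 403 and 19, the 1345 for stage in IkL/L cells 2214, 2138 and 2129, and the 61 for GSI 364 and 254 with these blocks and 10 with array medians subtracted. With all arrays kept, the calls for genotype in CDPs were 235 with DMSO (4 to 499 over the alternatives) and 428 with GSI (0 to 823), in MDPs 21 with DMSO (7 to 48), 23 with GSI (0 to 65) and 119 averaged (up to 298), for the difference between stages 112 (up to 231), for stage with DMSO 19 in WT cells (5 to 88) and 340 in IkL/L cells (up to 859), and for GSI 1 in IkL/L CDPs (0 to 12) and 2 in WT CDPs (0 to 11). Without single arrays the calls over all genes were 617 to 1097 for genotype in CDPs averaged (88 to 278 with DMSO, 180 to 463 with GSI), 35 to 284 in MDPs averaged (0 to 26 with DMSO, 3 to 221 with GSI), 67 to 146 for the difference between stages, 67 to 316 for stage in WT cells averaged (0 to 44 with DMSO), 710 to 1448 in IkL/L cells averaged (99 to 412 with DMSO), and for GSI 0 to 85 averaged, 0 to 18 in IkL/L CDPs, 0 to 6 in WT CDPs and 0 to 59 in WT MDPs. Differences that had not passed the test changed sign without some arrays, with ranges of -0.0355 to 0.260 for *Csf2ra* and -0.885 to 0.129 for *Csf3r* by genotype in CDPs, -0.535 to 0.270 for *Kit* and -0.160 to 0.0579 for *Il3ra* by genotype in MDPs, -0.286 to 0.00944 for *Csf2ra* by stage in WT cells, -0.519 to 0.286 for *Kit* by stage in IkL/L cells, and -0.0630 to 0.0849 for *Csf2ra* with GSI, which was -0.00648 after subtraction of array medians. The causes were not tested.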
